A study of Homo sapiens with 4 samples.

Results

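The 10 genes described here encode chaperones and other proteins of the endoplasmic reticulum (ER) and the sensors that watch protein folding there: HSPA5, HSP90B1, PDIA4, DNAJB9, HERPUD1, SDF2L1, XBP1, ATF6, ERN1 and EIF2AK3. They were followed through every probe set of the array whose annotation names exactly 1 gene, that gene being one of the 10. This gave 19 probe sets for 10 genes, of 37465 single-gene probe sets and 18304 genes in all. For HSP90B1, 2 further probe sets also name a second gene and were left out. Expression was measured on 4 single-colour arrays. The cells were U87, a long-established line from a human glioma. In all 4 samples QK, an RNA-binding protein also called QKI, had been knocked down. The miR-NT group (2 arrays) had received a control microRNA with a scrambled sequence, and the miR-20a group (2 arrays) had received miR-20a, a member of the miR-17 family, in both cases by transduction. The question is how RNA levels in QK-depleted cells change once miR-20a is added. No cells without the knockdown were analysed here, and neither the knockdown method nor the number of clones or cultures is given in the labels.

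The ER folds the proteins that a cell secretes or places in its membranes. When unfolded proteins accumulate, 3 sensors in the ER membrane respond in what is called the unfolded protein response (UPR). EIF2AK3 (also called PERK) is a kinase that lowers translation, ERN1 (IRE1) cuts the XBP1 transcript so that an active transcription factor is made, and ATF6 is released by cleavage and enters the nucleus. ATF6 and XBP1 raise transcription of chaperones through short promoter sequences, the ER stress elements. The arrays measure RNA levels only, and neither XBP1 splicing nor sensor activation is read by these values.

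The supplied microRNA is shown first because it is what separates the groups. The mature 5′ arm in RefSeq (GRCh38.p14, chr13:91351072-91351094, plus strand) reads as follows, with the seed, bases 2 to 8, in capitals. The labels do not name the arm.
hsa-miR-20a-5p: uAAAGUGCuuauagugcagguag

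Promoters are shown for the 5 of 10 genes that hold an exact match to 1 of 2 ER stress elements, through which ATF6 and XBP1 raise transcription of chaperones. RefSeq promoter windows of 300 bases, from 250 before to 50 after the transcription start, matched all 10 genes with 12 windows (GRCh38.p14). The ER stress element was searched on both strands as CCAAT, a gap of 9 bases and CCACG, and the ER stress element II as ATTGG, a gap of 1 base and CCACG. The first was found in 27 of 35116 windows (0.0769%) and in the windows of 3 of the 10 genes, HSPA5, HSP90B1 and XBP1. The second was found in 19 windows (0.0541%) and in those of 2 of the 10, HERPUD1 and SDF2L1. No member window held both elements. The 8-letter core TGACGTGG was in 256 windows (0.729%) and in 0 windows of the 10 genes. A match describes letters, not binding. The stretches below lie upstream of the start on the strand of the gene, with the fixed parts of each element in capitals.
HSPA5 (chr9:125241366-125241434, minus strand): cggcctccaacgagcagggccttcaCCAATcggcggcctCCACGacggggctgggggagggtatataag
HSP90B1 (chr12:103930191-103930364, plus strand): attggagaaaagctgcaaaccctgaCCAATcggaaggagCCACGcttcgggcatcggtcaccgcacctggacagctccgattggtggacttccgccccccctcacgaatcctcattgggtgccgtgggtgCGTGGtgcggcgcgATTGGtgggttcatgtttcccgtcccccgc
XBP1 (chr22:28800578-28800646, minus strand): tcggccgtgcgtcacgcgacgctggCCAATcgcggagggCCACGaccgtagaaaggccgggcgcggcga
HERPUD1 (chr16:56932000-56932060, plus strand): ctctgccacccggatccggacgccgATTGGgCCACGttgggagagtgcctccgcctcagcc
SDF2L1 (chr22:21642089-21642149, plus strand): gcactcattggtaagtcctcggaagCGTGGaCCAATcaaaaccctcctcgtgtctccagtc
The HSPA5 element began 66 bases and the XBP1 element 52 bases before the start. HSP90B1 held 2 elements, the one nearer the start on the opposite strand. The HERPUD1 element began 117 bases before the start, and that of SDF2L1 began 188 bases before it, on the opposite strand.

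Between the miR-20a and miR-NT groups, the co-chaperone DNAJB9, the degradation factor HERPUD1 and the major chaperone HSPA5 had the largest differences of the 10 genes, and all were higher on both miR-20a arrays. None of the 10 passed the threshold of an adjusted p under 0.05 (limma, Benjamini-Hochberg over 18304 genes), which 0.426% of genes passed. At an unadjusted p under 0.05, called nominal from here on, 3 of the 10 were higher and 0 lower, against 12.6% and 9.24% of all genes. The same 3 had an adjusted p under 0.1 (limma), as did 4.94% of all genes. The mean of 7 of the 10 was higher in miR-20a cells, against 47% of all genes. This fit takes the brightest probe set of each gene over the 4 arrays, and values of the other probe sets come from a fit over 41920 probe sets. Values are log2 levels, differences are miR-20a minus miR-NT, and errors of a difference are standard errors (SE) of the fit. An exact permutation test of 2 arrays against 2 cannot give a p below 0.333, so the tests rest on the spread that limma estimates over all genes together. The labels do not say whether samples of 1 group were grown separately. The p-values then reflect only how these particular samples vary, which may be technical variation.

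DNAJB9, a J-domain partner of HSPA5 that also holds ERN1 inactive, was at 7.96 and 8.11 log2 units in miR-NT cells and at 8.69 and 8.58 in miR-20a cells. The groups did not overlap, and the lowest miR-20a array lay above the highest miR-NT array. Its mean was 8.64 ± 0.08 against 8.04 ± 0.11 (SD, n = 2 each), a difference of 0.60 ± 0.10 (SE), or 1.52-fold, with an adjusted p of 0.064 (limma). The other probe sets of DNAJB9 differed from this one. Probe set 1554462_a_at read 6.95 and 6.94 against 7.23 and 7.07, a difference of 0.20, and 202843_at, whose levels lay between 4.86 and 5.19, had a difference of -0.012. The mean of the 3 probe sets gave 0.26 (adjusted p = 0.18, limma). Without miR-20a replicate 2 the difference was 0.65, and with each array left out in turn it ran from 0.52 to 0.68.

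HERPUD1, a membrane protein of ER-associated degradation that is induced by ER stress, was at 10.26 and 10.48 log2 units in miR-NT cells and at 10.94 and 10.89 in miR-20a cells. Again no miR-20a array lay within the miR-NT range. The difference was 0.54 ± 0.10 (SE), or 1.46-fold, with an adjusted p of 0.082 (limma), and the array holds 1 probe set for it.

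HSPA5, the abundant chaperone BiP that binds the sensors in unstressed cells, was at 12.22 and 12.25 log2 units in miR-NT cells and at 12.64 and 12.55 in miR-20a cells. This is a difference of 0.36 ± 0.09 (SE), or 1.29-fold, with an adjusted p of 0.096 (limma). Its other probe set, 230031_at, read 8.33 and 8.44 against 8.54 and 8.69, so both probe sets were higher on both miR-20a arrays, the other by 0.23. After quantile normalization of the 4 arrays the difference of HSPA5 was 0.22 (adjusted p = 0.22, limma) and that of HERPUD1 0.39 (adjusted p = 0.13, limma), while DNAJB9 had 0.57 (adjusted p = 0.060, limma). That fit called 0.606% of genes and 0 of the 10.

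The calls of these 3 genes differed between fits under the deposited scaling. With the lower 40% of genes by mean level left out, a filter that all 10 genes and 16 of the 19 probe sets passed, DNAJB9, HERPUD1 and HSPA5 were called higher (limma adjusted p = 0.017, 0.025 and 0.034), in a fit that called 8.63% of genes higher. With a robust fit that follows the mean-variance trend they were also called (limma adjusted p = 0.014, 0.014 and 0.019), where 5.38% of genes were called higher.

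PDIA4, a disulfide isomerase of the ER, was at 10.33 and 10.40 log2 units in miR-NT cells and at 10.59 and 10.55 in miR-20a cells. The difference of 0.20 ± 0.08 (SE) did not pass (limma adjusted p = 0.23), and it was 0.056 after quantile normalization. Its second probe set, 208658_at, read 9.35 and 9.23 against 9.59 and 9.54, so neither probe set had overlapping groups.

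HSP90B1, the ER member of the HSP90 family, was read by 2 probe sets of a class that can cross-hybridize. Probe set 216449_x_at was at 9.93 and 9.71 log2 units in miR-NT cells and at 9.92 and 10.0002 in miR-20a cells, with overlapping groups and a difference of 0.14 ± 0.10 (SE, limma adjusted p = 0.48). The difference of 216449_x_at was 0.027 without miR-NT replicate 2, 0.25 without miR-NT replicate 1 and 0.024 after quantile normalization. The second, 216450_x_at, was at 9.02 and 9.01 against 8.94 and 8.95, lower on both miR-20a arrays by 0.067.

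SDF2L1, a soluble partner of HSPA5 chaperone complexes, was at 8.69 and 8.57 log2 units in miR-NT cells and at 8.63 and 8.61 in miR-20a cells. Both miR-20a values lay inside the miR-NT range. The difference was -0.016, with a 95% interval from -0.23 to 0.20 (limma), and its sign changed after median centring of the arrays.

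The sensors and XBP1 did not share a direction. EIF2AK3, the PERK kinase, was at 7.43 and 7.60 log2 units in miR-NT cells and at 8.02 and 7.61 in miR-20a cells, a difference of 0.30 ± 0.15 (SE, limma adjusted p = 0.29). One array carried this difference, which was 0.094 without miR-20a replicate 1 and 0.50 when replicate 2 was left out instead. Its second probe set, 241463_at, lay between 5.15 and 5.35 on the 4 arrays with a difference of -0.034.

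ATF6 was at 8.63 and 8.65 log2 units in miR-NT cells and at 8.51 and 8.52 in miR-20a cells by probe set 203952_at. The difference of -0.13 ± 0.08 (SE) did not pass (limma adjusted p = 0.42), although the groups did not overlap. The 2 other probe sets had the opposite sign. Probe set 217550_at read 7.41 and 7.42 against 7.78 and 7.45, and 231927_at read 6.97 and 6.86 against 7.12 and 6.94, with differences of 0.20 and 0.11. In both, miR-20a replicate 1 was the highest array.

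ERN1, the IRE1 kinase and nuclease, was at 7.63 and 7.61 log2 units in miR-NT cells and at 7.45 and 7.67 in miR-20a cells, so that the miR-20a arrays lay on either side of the miR-NT arrays. The difference was -0.061, with a 95% interval from -0.30 to 0.18 (limma). Its second probe set, 235745_at, read 5.61 and 5.58 against 5.58 and 5.24. XBP1, the transcription factor whose transcript ERN1 cuts, was at 8.27 and 8.42 in miR-NT cells and at 8.44 and 8.29 in miR-20a cells. Its difference was 0.019, with a 95% interval from -0.22 to 0.26 (limma), and it was -0.015 after quantile normalization.

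**Figure D1:**
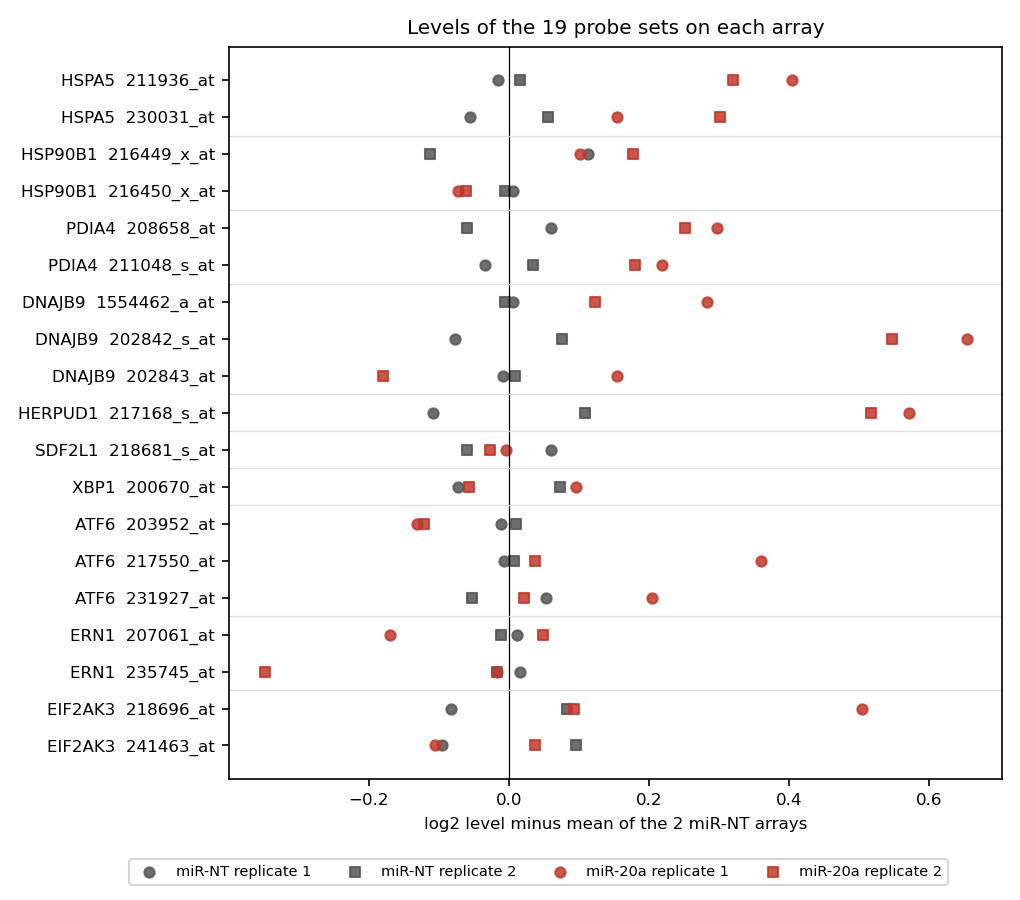
Each row is 1 of the 19 probe sets, and points give the log2 level on each array minus the mean of the 2 miR-NT arrays (x axis, log2 units), grey for miR-NT, red for miR-20a, circles for replicate 1 and squares for replicate 2. Both red points lie right of both grey points in 9 probe sets, among them those of HSPA5, PDIA4 and HERPUD1, and left of both in 2.

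Counted over probe sets, 0 of 19 passed the threshold (limma, adjusted over 41920 probe sets, of which 0.136% passed), and 0 had an adjusted p under 0.1, as 0.379% of all had. Nominally 4 of 19 were higher and 0 lower, against 9.46% and 8.4% of all probe sets, and 12 of 19 had a higher mean, against 44.7%. These 4 were 1 probe set each of HSPA5, PDIA4, DNAJB9 and HERPUD1. Without low probe sets 1 of them passed, 202842_s_at of DNAJB9, in a fit that called 1.33% of probe sets, and with the trend and robust fit those of HSPA5, DNAJB9 and HERPUD1 passed, where 2.28% were called (limma). Both miR-20a arrays lay above both miR-NT arrays in 9 of 19 probe sets and below both in 2, against 21.7% and 27.2% of all probe sets. The 11 probe sets of the folding and degradation genes held 7 of the 9, and the 8 probe sets of the sensors and XBP1 held the other 2. By gene, 5 of 10 were above and 1 below without overlap, against 25.5% and 27% of all genes. The median difference was 0.17 over the 10 genes, 0.28 over the 6 folding and degradation genes and -0.021 over the 4 others, beside -0.013 over all genes. The difference between these subsets was not tested.

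The scaling of the arrays bore on this median. After quantile normalization the median of the 10 genes was 0.040 and after cyclic loess normalization, a setting chosen after seeing the data, 0.049. Over all genes the difference varied with the mean level: with genes cut into 5 equal classes by level, the median was -0.046 in the lowest class and 0.11 in the highest, and 4 of the 10 genes lay in the highest class and 4 in the next. A sign of RNA quality moved with the groups as well. For ACTB, the 3′ control probe set exceeded the 5′ one by 0.20 and 0.35 log2 units in miR-NT samples and by 0.52 and 0.46 in miR-20a samples. The part of either in the values of these genes was not tested.

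**Figure D2:**
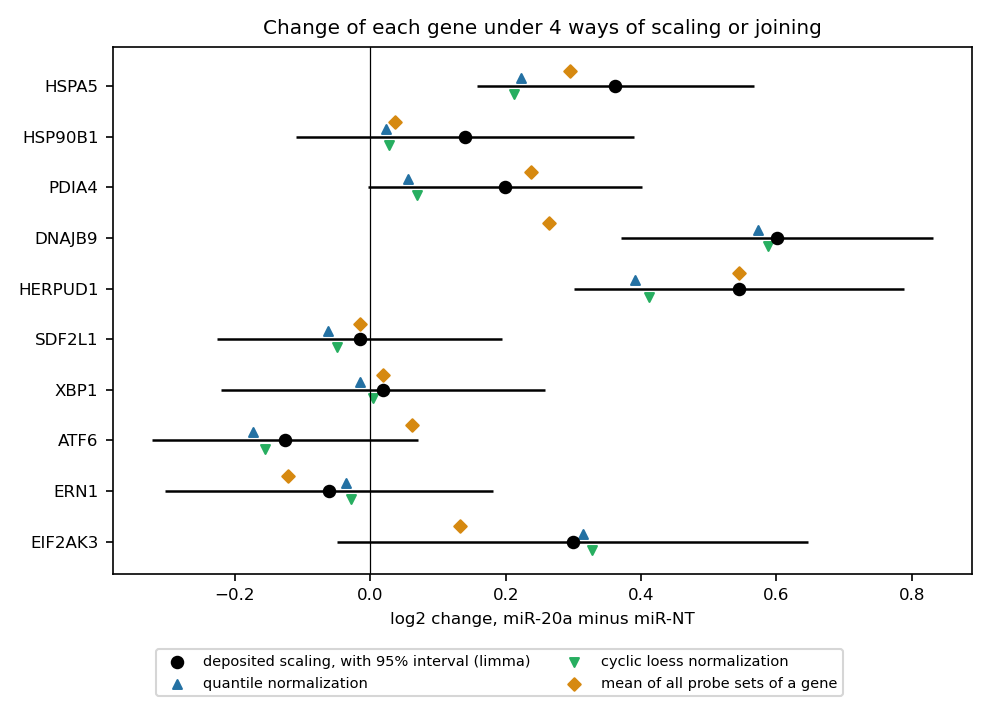
Points give the log2 change of each gene, miR-20a minus miR-NT (x axis, log2 units), under the deposited scaling with its 95% interval (black), after quantile (blue) or cyclic loess (green) normalization, and as the mean of all probe sets of the gene (orange). DNAJB9 is at 0.57 and 0.59 after the 2 normalizations but at 0.26 as a mean of its probe sets, and PDIA4 moves from 0.20 to 0.056 after quantile normalization.

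The other genes of ER protein handling leaned the same way under the deposited scaling, and no gene of these lists passed the threshold (limma). Of 20 measured ER chaperones, isomerases and folding helpers, 16 had a higher mean in miR-20a cells, against 47% of all genes. Nominally 6 were higher and 1 lower (limma), against 12.6% and 9.24% of all genes, and the median difference was 0.15. DNAJC3, a co-chaperone that inhibits EIF2AK3, had a difference of 0.45 ± 0.09 (SE), and DNAJC10, a reductase that works with HSPA5, one of 0.44 ± 0.11, each with all 4 probe sets of that sign. CALR, the calcium-binding lectin chaperone calreticulin, went the other way: it was at 12.38 and 12.37 log2 units in miR-NT cells and at 12.01 and 12.01 in miR-20a cells. Its difference was -0.37 ± 0.08 (SE, limma adjusted p = 0.090), and all 3 of its probe sets were lower.

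Of 16 genes of ER-associated degradation, which moves misfolded proteins to the proteasome, 13 had a higher mean, against 47% of all genes. Nominally 5 were higher and 0 lower (limma), against 12.6% and 9.24% of all genes, with a median of 0.14. SEL1L, the scaffold of the retrotranslocation complex, had a difference of 0.49 ± 0.10 (SE), with 3 of 4 probe sets of that sign. DERL2, a membrane protein of the same complex, had one of 0.41 ± 0.08, and SELENOS, a selenoprotein that recruits the extracting ATPase, one of 0.34 ± 0.10.

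Among 19 genes of the translocon, signal peptidase and ER-to-Golgi traffic, 18 had a higher mean, against 47% of all genes. Nominally 4 were higher and 0 lower (limma), against 12.6% and 9.24% of all genes, with a median of 0.20. In 14 of the 19, both miR-20a arrays lay above both miR-NT arrays, against 25.5% of all genes. Most genes of this list, and of the folding and degradation lists, lay in the highest of the 5 level classes. There the median difference over all genes was 0.11, and the part of level in these counts was not tested. SPCS3, a signal peptidase subunit, had a difference of 0.44 ± 0.08 (SE), SRPRB, a subunit of the signal recognition particle receptor, one of 0.33 ± 0.08, and SSR1, a translocon-associated subunit, one of 0.31 ± 0.10. After quantile normalization 14 of the 19 had a higher mean and the median was 0.050, beside 13 of 20 and 0.033 for the folding genes and 10 of 16 and 0.028 for the degradation genes.

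Signalling genes of the UPR had a smaller median difference than the 3 lists above, a contrast that was not tested. Of 18 measured, 13 had a higher mean, against 47% of all genes. Nominally 2 were higher and 0 lower (limma), against 12.6% and 9.24% of all genes. Both miR-20a arrays lay above both miR-NT arrays in 5 of the 18 and below both in 4, against 25.5% and 27% of all genes. The median was 0.024, which turned to -0.064 after quantile normalization. CREB3L2, an ER-bound transcription factor of secretory genes, had a difference of 0.55 ± 0.09 (SE, limma adjusted p = 0.071), with 2 of 3 probe sets of that sign. MBTPS2, the site-2 protease that releases ATF6, had one of 0.46 ± 0.10, with all 3 probe sets of that sign, and PPP1R15B, a phosphatase subunit that restores translation, one of 0.33 ± 0.14. The difference of PPP1R15B rested on 1 array, being 0.12 without miR-20a replicate 1 and 0.54 without replicate 2, and CREB3L2 had 0.094 and MBTPS2 0.19 as the mean of their probe sets. The transcription factors of the EIF2AK3 branch, named after their values were seen, had differences of -0.013 for ATF4 and 0.0058 for DDIT3, which encodes CHOP, and TRIB3, a pseudokinase induced downstream of both, had 0.0071.

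Chaperones of other compartments were compared as a reference outside the ER. Of 12 measured in the cytosol and mitochondria, 10 had a higher mean, against 47% of all genes. Nominally 5 were higher and 1 lower (limma), against 12.6% and 9.24% of all genes. The median was 0.15, which was 0.036 after quantile normalization. Most of the 12 also lay in the highest of the 5 level classes, where the median difference over all genes was 0.11. The part of level in these counts was not tested either. HSPH1, a nucleotide exchange factor of HSP70, had a difference of 0.40 ± 0.10 (SE, 1 of 2 probe sets of that sign), DNAJA1, an HSP70 co-chaperone, one of 0.32 ± 0.09, and HSPA4, another exchange factor, one of 0.31 ± 0.09. After quantile normalization DNAJA1 had 0.16 and HSPA4 0.18, and HSPH1 had 0.19 as the mean of its probe sets. None of the 12 passed the threshold (limma). Whether the ER lists differed from this list was not tested.

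Calls in these lists came with the same 2 fits as for the 10 genes. Without low genes, where 11.3% of all genes were called (limma), 3 of 19 folding genes, 2 of 16 degradation genes, 2 of 19 translocon and traffic genes, 2 of 17 signalling genes and 3 of 12 chaperones outside the ER passed. With the trend and robust fit, where 6.62% were called (limma), the counts were 4 of 20, 2 of 16, 2 of 19, 2 of 18 and 3 of 12. In the folding list DNAJC3, DNAJC10 and CALR, the last as lower, passed in both fits. So did SEL1L and DERL2 of the degradation list, SPCS3 and SRPRB of the translocon list, and CREB3L2 and MBTPS2 of the signalling list. Outside the ER, HSPH1, DNAJA1 and HSPA4 passed in both. As the mean of its probe sets SEL1L had a difference of 0.24, SRPRB 0.21 and SSR1 0.13.

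**Figure D3:**
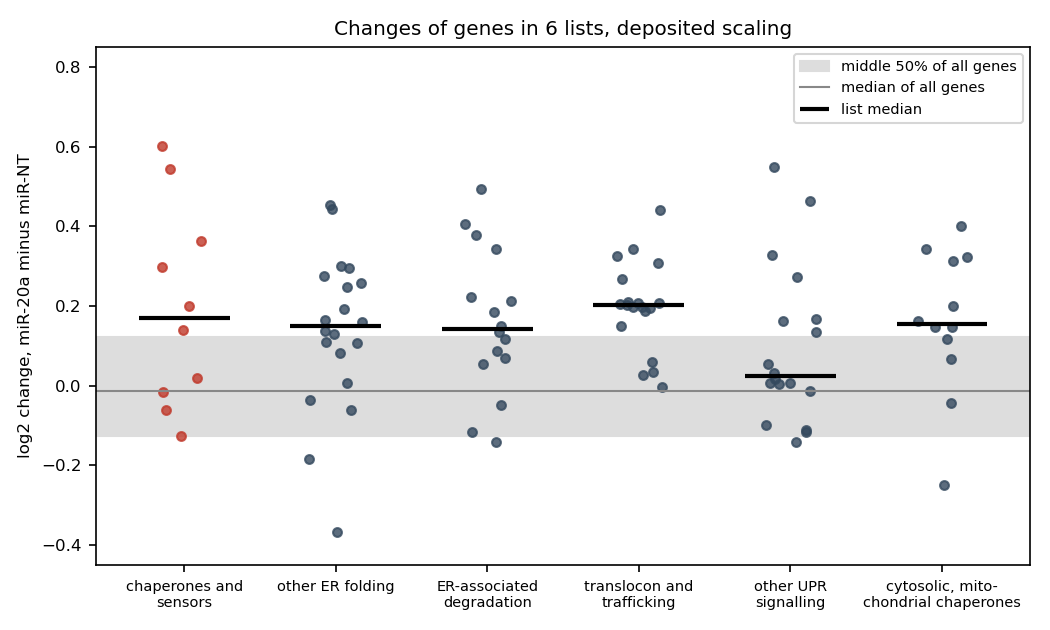
Each point is a gene, placed by its log2 change, miR-20a minus miR-NT (y axis, log2 units), in 6 lists (x axis), with black bars at list medians, the grey line at the median of all genes and the grey band over the interquartile range of all genes. The translocon and trafficking genes have a median of 0.20 and the other UPR signalling genes one of 0.024, and the lowest point is CALR at -0.37.

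Genes that hold the same promoter element did not share a direction. The ER stress element was in the windows of 25 genes, of which 18 were measured: the miR-20a mean was the higher one for 12 and the lower one for 6, 3 were nominally higher and 1 nominally lower (limma), against 12.6% and 9.24% of all genes, and the median difference was 0.068. Within the group shown above, HSPA5 had 0.36, HSP90B1 0.14 and XBP1 0.019. The folding list held 5 more of these genes, the lectin chaperones CANX and CALR, the isomerase PDIA6, the secreted factor CRELD2 and the oxidase ERO1B, with differences of 0.26, -0.37, 0.14, 0.16 and -0.037. For the ER stress element II, the 2 members stood apart: HERPUD1, printed above, had 0.54 and SDF2L1 -0.016. Over the 17 measured genes with that element, 9 lay higher and 8 lower, with a median of 0.0074. DNAJB9, which had the largest difference of the 10 genes, held none of the 3 searched motifs in its window.

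The values of the whole array bear on these results as follows. Pairs of arrays had r = 0.996 in the control group, 0.995 in the miR-20a group and 0.991 to 0.994 between groups, over probe sets. No detection calls accompany the values, so a low level cannot be told from background. The markers do not test the U87 label, since levels of different probe sets cannot be set against each other. All 8 glioma markers were measured, with group means from 7.997 log2 units for NES to 14.68 for VIM. Of these, CHI3L1, a secreted glycoprotein of mesenchymal glioma, fell by 1.12 (limma adjusted p = 0.011). The 6 markers of differentiated glia and neurons had group means from 5.30 for AQP4 to 8.17 for RBFOX3. Over 15 measured epithelial, blood and endothelial markers the group means ran from 4.64 for EPCAM to 8.73 for PECAM1. None of the 15 passed the threshold (limma), and KRT5, CD3E and ERG were nominally lower. The part of other cells in the results was not tested.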

How the data were processed

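Biotin-labelled cRNA from total RNA was hybridised to Affymetrix arrays, per the labels' protocols. The authors deposited a log2 level for each probe set on each array. The submitters' processing notes list affy, a package for R, with no version. How background was corrected and arrays were normalized is not given in the sources used here. Values ran from 3.45 to 15.07, from which base 2 was inferred. Of 41930 probe sets, 10 array controls were left out. Names come from GEO's platform annotation, checked by Entrez identifier against RefSeq genes of GRCh38.p14 (0 changed): 37465 probe sets name 1 gene, 1727 several and 2728 none. Group differences were fitted with limma 3.58.1 under R 4.3.3, using lmFit and eBayes with the group as the only term, over 18304 genes and again over 41920 probe sets. The procedure was tested on simulated data. P-values are two-sided, adjusted by Benjamini-Hochberg over all features, with a threshold of 0.05. No filter on low values was applied in the reported fits. Precision is limited by the small number of arrays.

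The text names all 10 members with every probe set, and the 3 genes with the smallest p of each list of ER proteins, other chaperones and secreted proteins. Other genes, markers among them, were named after their values were seen. Members and lists were chosen with earlier results of these data known. Alternatives tried were a replicate block, quantile, median or cyclic loess scaling, a filter on low levels, a robust fit with a trend, the mean or the most variable probe set of a gene, looser thresholds and the omission of each array.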

Additional observations from a re-analysis of the deposited data

Results flagged for a closer look

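Among the array controls, the 3′ probe set of ACTB exceeded its 5′ probe set by a mean of 0.486 after miR-20a and of 0.272 in the control group (log2 units, 2 arrays each). It is listed because these probe sets lie outside the main measurement and the value exceeds its level in the control samples. For GAPDH the means were 0.275 and 0.222. The part of this in the values of the 10 genes was not tested.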

How the results depend on the processing

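The count of member genes past the threshold was 0 in the reported fit. It was 3 with low genes left out and 3 with a trend and robust fit, in each case DNAJB9, HERPUD1 and HSPA5, and 3 at an adjusted p under 0.1 or an unadjusted p under 0.05. Over probe sets it was 1, 3, 0 and 4 in turn. Counts of members with an array left out are not given, since the lone sample of a group then has no spread of its own. With the replicate block 0 members and 0 of all genes passed. The deviations of same-numbered samples had r = -0.12 over probe sets. This weak value cannot settle whether the numbers pair the samples, and the labels do not say. The crossed pairing, chosen after seeing the data, also called 0 genes. The median of the 10 genes, 0.17, was 0.040 after quantile normalization, 0.049 after cyclic loess, 0.20 after median centring, 0.097 for the mean of all probe sets and 0.24 for the most variable probe set, and 0.14 to 0.19 when each array was left out. The cause of these shifts was not tested.

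Signs changed for these. XBP1 was -0.015 after quantile normalization and -0.057 to 0.10 with arrays left out. SDF2L1 was 0.018 after median centring and -0.076 to 0.044 with arrays left out, and ERN1 was -0.17 to 0.048. ATF6 was 0.062 as the mean of its probe sets and 0.20 by the most variable one. Probe set 202843_at of DNAJB9 was 0.030 after quantile normalization, 0.021 after median centring, 0.035 after cyclic loess and -0.18 to 0.16 with arrays left out. Probe set 241463_at of EIF2AK3 was 0.0051 after quantile normalization, 0.015 after cyclic loess and -0.13 to 0.062 with arrays left out. HSPA5, HSP90B1, PDIA4, DNAJB9, HERPUD1 and EIF2AK3 kept a positive difference in all 13 other fits. Some of these fits could not change it: the replicate block, the crossed pairing, the low-level filter and the trend and robust fit leave the difference itself as it was. By their second probe sets HSP90B1 (-0.067) and EIF2AK3 (-0.034) had negative differences in the reported fit. With 3 arrays, the lone sample of a group is assumed to vary like the others.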

Other observations

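The cargo of the ER was looked at through the genes of 14 matrix and secreted proteins, 12 of which passed the filter on low levels. Of all 14, 11 had a higher mean in miR-20a cells, against 47% of all genes. Past the threshold 2 rose and 0 fell (limma), where 0.426% of all genes passed. At an unadjusted p under 0.05 (limma), 6 were nominally higher and 2 nominally lower, against 12.6% and 9.24% of all genes. The lower 2 were TIMP1 (-0.33) and FN1 (-0.26). CHI3L1, a secreted glycoprotein listed among the glioma markers and not among these 14, fell by 1.12 (limma adjusted p = 0.011). THBS1, the matrix glycoprotein thrombospondin-1, was at 9.37 and 9.41 log2 units in miR-NT cells and at 11.05 and 11.01 in miR-20a cells, and rose by 1.64 ± 0.08 (SE, limma adjusted p = 0.0062). COL1A1, a chain of type I collagen, rose by 0.76 ± 0.10 (SE, limma adjusted p = 0.045), with 3 of 5 probe sets of that sign. COL1A1 passed in 4 of 13 other fits: its call was lost after quantile (0.59, limma adjusted p = 0.057) and cyclic loess normalization (0.62, limma adjusted p = 0.056), and its difference was 0.10 as the mean of its probe sets. THBS1 passed in 9 of 13 other fits, with differences from 1.11 to 2.05, and not under the replicate block (limma adjusted p = 0.25), the crossed pairing (0.13) or without miR-NT replicate 1 (0.12) or 2 (0.13), fits that called 0 of all genes. COL4A2, a basement membrane collagen chain, had a difference of 0.52 ± 0.09 (SE, limma adjusted p = 0.071). After quantile normalization THBS1 alone of the 14 passed (limma) and their median was 0.12, against 0.19 before.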
